A study of Rattus norvegicus with 8 samples.

Results

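Platelet-derived growth factor (PDGF), fibroblast growth factor (FGF) and epidermal growth factor (EGF) signaling was followed through 10 genes: the PDGF ligands Pdgfa, Pdgfb, Pdgfc and Pdgfd, the PDGF receptors Pdgfra and Pdgfrb, Fgf2 with its receptor Fgfr1, and Hbegf with its receptor Egfr. The genes were chosen by name, with earlier results of these data known, and each was found under its symbol among the 37209 genes of the count table. All 10 had enough counts to be tested, as had 14359 genes in all.

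RNA was sequenced from carotid arteries of male Sprague-Dawley rats weighing 400 g on average, 2 weeks after a balloon catheter had been passed through the left carotid artery to injure its intima. The injured group held 4 left arteries, with no drug named, and the control group held 4 right arteries, left undamaged, from rats that had been operated on the other side. The labels do not say whether the layers of the wall were separated and do not name the rat of each artery. The study describes its replicates as biological. In such bulk RNA, fewer cells of a type and less RNA per cell cannot be told apart.

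PDGFs are secreted dimers that drive smooth muscle cells and fibroblasts to divide and migrate. PDGF-A binds the alpha receptor, PDGF-B binds both receptors, and PDGF-C and PDGF-D must be cut by extracellular proteases before they can bind. FGF2 is stored in cells and matrix and acts through FGFR1, whereas HB-EGF is made as a membrane protein that metalloproteases release to act on the EGF receptor; all these receptors are tyrosine kinases that feed the ERK and PI3-kinase pathways. After balloon injury these systems are known for driving smooth muscle cells of the media into the neointima.

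The data showed one change among the 10 genes that met both criteria used here, an adjusted p under 0.05 and a fold change above 2. Pdgfa rose 2.1-fold in the injured arteries, close to the limit, and it was no longer called without control artery 4 (1.96-fold) or without injured artery 2. Pdgfb and Pdgfc were also higher on average, and Fgf2 and Hbegf lower. All of these, like Pdgfd and the 4 receptors, overlapped between the groups. None of the 9 genes other than Pdgfa passed the main test with all arteries, though Pdgfb passed the threshold of adjusted p under some other settings. Without control artery 4, whose RNA stood apart, Fgf2, Fgfr1 and Hbegf were lower and Pdgfb was higher at an adjusted p under 0.05.

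The promoters of Pdgfa, the gene that rose, and of Pdgfb, the ligand of the same subfamily that fell just short of the threshold, are shown because these are the ligands that the comparison turns on. Both are RefSeq sequences of the GRCr8 assembly and run 5′ to 3′ from 250 bases before the start of the gene to 50 bases after it, with the coordinates 1-based. The Pdgfa promoter lies on the plus strand at chr12:20759116-20759415 and the Pdgfb promoter on the minus strand at chr7:113438294-113438593. Capitals mark the GC box, GGGCGG on either strand.
Pdgfa: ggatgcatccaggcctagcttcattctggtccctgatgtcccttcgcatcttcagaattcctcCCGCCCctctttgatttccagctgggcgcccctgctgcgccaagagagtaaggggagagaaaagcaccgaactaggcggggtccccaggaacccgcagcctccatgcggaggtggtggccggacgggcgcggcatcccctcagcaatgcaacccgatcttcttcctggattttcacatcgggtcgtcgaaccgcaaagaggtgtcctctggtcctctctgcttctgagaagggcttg
Pdgfb: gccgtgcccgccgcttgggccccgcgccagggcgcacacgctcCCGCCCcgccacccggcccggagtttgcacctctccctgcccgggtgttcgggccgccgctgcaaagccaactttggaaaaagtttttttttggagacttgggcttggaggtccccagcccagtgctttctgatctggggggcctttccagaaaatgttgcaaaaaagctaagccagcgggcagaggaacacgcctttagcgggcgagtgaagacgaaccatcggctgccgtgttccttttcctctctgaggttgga

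Each of these promoters held 1 GC box, at position -187 from the start in Pdgfa and at -207 in Pdgfb, and both windows were rich in G and C, at 60.0% and 62.0% of bases. The RefSeq table held such a window for 8 of the 10 genes, all except Pdgfrb and Fgfr1, and 4 of the 8 contained a GC box, against 33.1% of the 33469 windows of 300 bases. The AP-1 motif TGANTCA was found in 1 of the 8, Pdgfra, against 7.33% of all windows. The shear stress element GAGACC was also found in Pdgfra alone, against 16.5% of all windows. The EGR1 motif GCGNGGGCG, which can overlap a GC box, was found in none of the 8 and in 4.98% of all windows. All motifs were searched on both strands, and a match describes the letters only.

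The libraries held 11459632 to 16658089 counts each, and 3 counts, the limit that a count of 0 allows, corresponded to 0.18 to 0.262 CPM, where CPM is a gene's count relative to the total of its library after correction of that total with a TMM factor. These limits cover counting error only. Levels are given as such CPM and compared only within a gene, since transcript lengths were not used here. The smooth muscle markers Acta2 and Myh11 were at 2730 to 17700 CPM in every artery. The protocol text speaks of brain tissue, but the forebrain markers Neurod6, Gad2 and Slc17a7 stayed at or below 0.652 CPM in every artery. Gad1 reached 2.21 CPM in control 2, Rbfox3 2.35 CPM and Camk2a 19.7 CPM in control 4. Of the 7 brain markers, 1 to 3 were at 0 in each artery, and their sum was 5.18 to 49.2 CPM in the controls and 9.83 to 203.0 CPM in the injured arteries, most of it Gfap in injured artery 3 with 196.0 CPM. Control artery 4 stood apart from the other controls. Its summed level of 11 sympathetic neuron markers was 10300 CPM, against 17.3 to 24.5 CPM in controls 1 to 3, with 1 of the 11 at 0. Injured artery 3 had 2560 CPM of the same markers with none at 0, followed by injured 1 with 176.0 CPM, and injured 2 and 4 had 23.6 and 31.1 CPM. Dbh, which makes noradrenaline, was at 3330 CPM in control 4, 375 CPM in injured 3 and at most 35.2 CPM elsewhere. The markers named here other than Acta2 and Gfap were chosen after their values were seen.

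In control artery 4, 9 of the 10 genes were below the lowest of the other controls. Pdgfrb, Egfr and Hbegf were the farthest off, at 36.6%, 36.8% and 40.8% of the mean of controls 1 to 3. Pdgfc was at 44.9%, Pdgfra at 50.7%, Fgfr1 at 55.5%, Pdgfd at 56.6%, Fgf2 at 61.2% and Pdgfa at 75.3%. Pdgfb was the exception, at 106.0%. The contractile smooth muscle markers summed to 17400 CPM in that artery against 37200 to 50400 CPM in controls 1 to 3, and the adventitial fibroblast markers to 19800 against 53400 to 59500 CPM. Most of the fibroblast sums was Col1a1 and Col3a1. The part of the neuron RNA in these values was not tested, and each gene is therefore given with and without this artery.

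**Figure D1:**
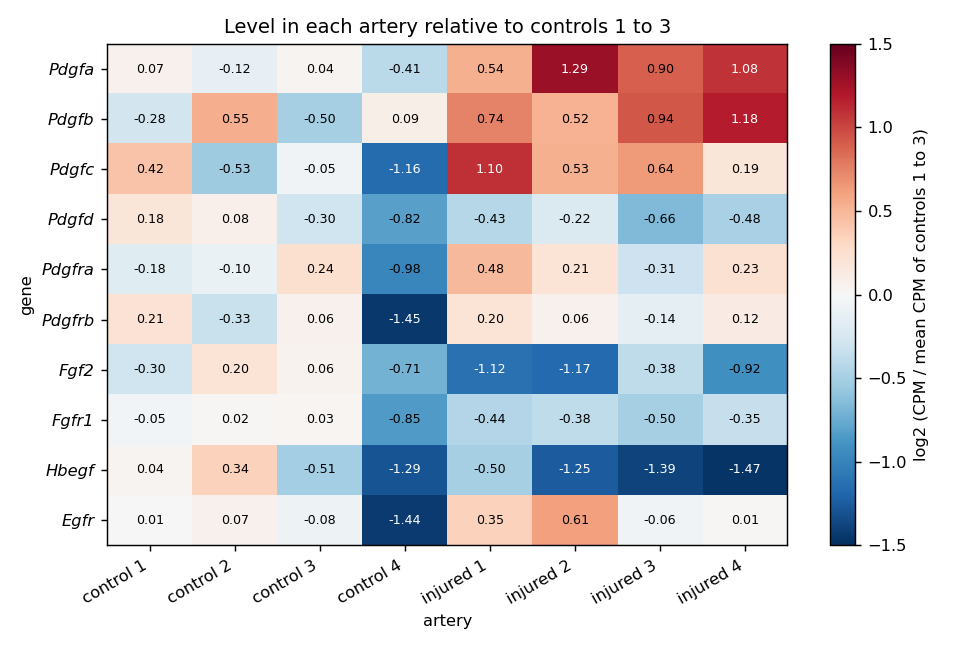
Level of each gene in each artery as the log2 of its CPM over the mean CPM of controls 1 to 3, with the colour scale from blue (lower) to red (higher) and the value printed in each field. The column of control 4 is blue for every gene except Pdgfb, and the row of Pdgfa is red in all 4 injured arteries, from 0.54 to 1.29.

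Across all genes tested, 8.31% were called higher and 2.57% lower after injury. Among the 10 genes, 1 was called higher and 0 lower, so that the share called was close to that of all genes. DESeq2 called 1 of the 10 higher and 0 lower, beside 1601 genes higher and 549 lower in all, more than edgeR called. An unadjusted p under 0.05 was reached by 5 of the 10. Of these, Pdgfa, Pdgfb and Pdgfc were higher, as were 16.8% of all genes at that p, and Fgf2 and Hbegf were lower, as were 14.3%. The median log2 fold change of the 10 was 0.34, with 6 of 10 positive, beside a median of -0.06 and 45.2% positive over all genes tested. Without control 4 the medians were 0.12 for the 10 genes and 0.03 for all genes.

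**Figure D2:**
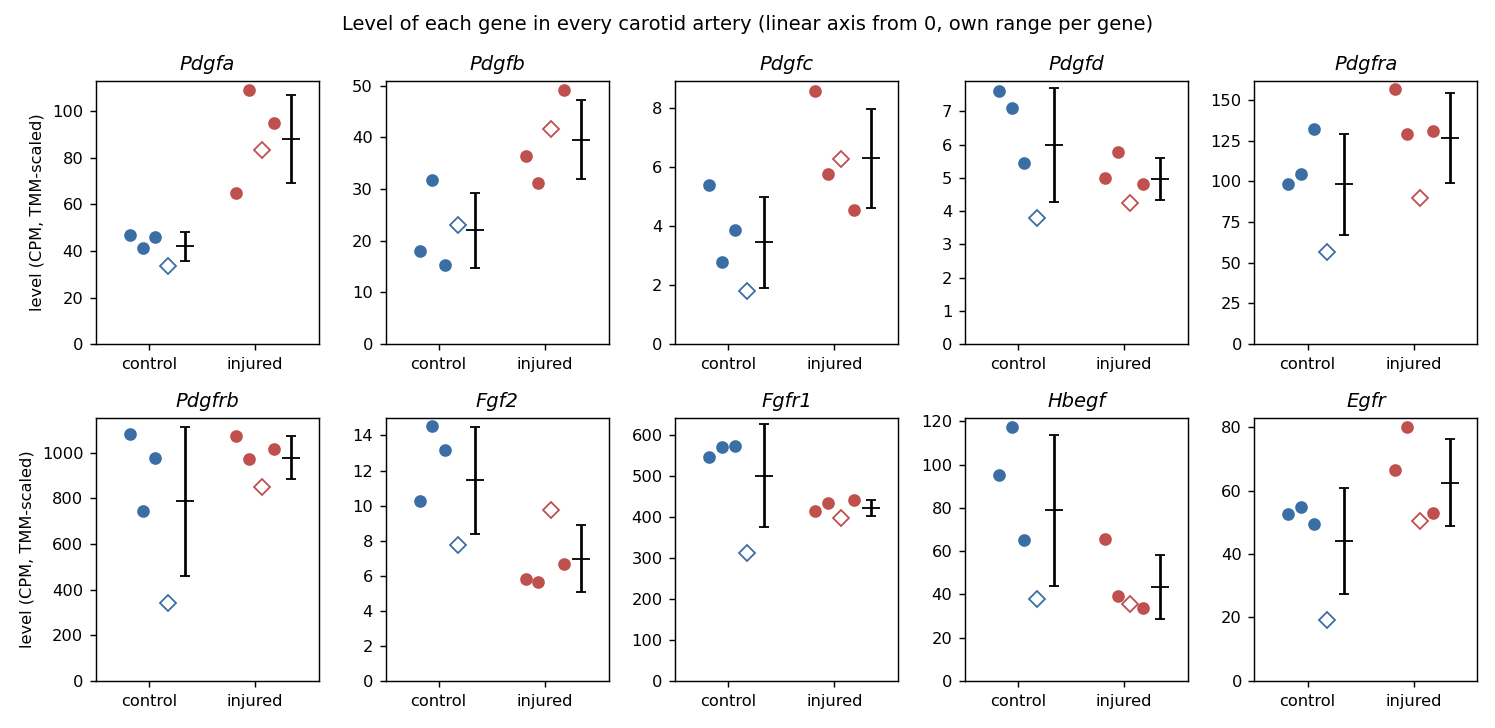
Level of each gene in CPM (TMM-scaled, linear axis from 0) in the 4 control arteries (blue) and the 4 injured arteries (red), with the mean and SD of each group in black. Open diamonds mark control 4 and injured 3, the arteries with the highest sum of sympathetic neuron markers. Pdgfa is the only gene whose groups do not overlap.

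Pdgfa encodes the A chain of PDGF, made by smooth muscle cells among others. It was at 46.9, 41.2, 46.0 and 33.6 CPM in controls 1 to 4 and at 64.8, 109.0, 83.4 and 94.7 CPM in injured arteries 1 to 4. Every injured artery was above every control, as was the case for 14.2% of all genes, and Pdgfa was the only one of the 10 to show this. The mean rose from 41.9 ± 6.07 CPM to 88.0 ± 18.7 CPM (SD, n = 4), which gave a log2 difference of 1.07 (standard error 0.18, 95% confidence interval 0.65 to 1.49, adjusted p = 0.00614 by the quasi-likelihood test of edgeR, Benjamini-Hochberg over all genes tested). The two-sided exact permutation test of its log2 CPM gave p = 0.0286, the smallest p that 4 arteries against 4 allow. The adjusted p stayed under 0.05 whichever artery was left out, with a highest value of 0.0263 in the edgeR fits. The fold change, however, was close to the limit of 2. It was 1.96 without control 4 (log2 0.97, adjusted p = 0.00498, edgeR), and without injured 2, the artery with the highest level, the log2 fold change was 0.95 (adjusted p = 0.02, edgeR), so that Pdgfa was not called in either case. It was not called without both control 4 and injured 3 either, at a log2 fold change of 0.999 (adjusted p = 0.00394, edgeR).

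Pdgfb encodes the B chain, made by endothelial cells, platelets and macrophages. Its level was 17.9, 31.8, 15.4 and 23.1 CPM in controls 1 to 4 and 36.4, 31.2, 41.5 and 49.2 CPM in injured arteries 1 to 4. The groups overlapped only through control 2, which was above injured 2. The means were 22.04 ± 7.23 CPM and 39.6 ± 7.65 CPM (SD, n = 4), and their log2 difference of 0.84 (standard error 0.25, interval 0.27 to 1.42) reached an adjusted p of 0.0522 (edgeR), just above the threshold. Leaving out control 2 gave 1.07 with an adjusted p of 0.0264 (edgeR), which passed both criteria. Leaving out control 4 gave 0.86 with an adjusted p of 0.0443 (edgeR), which passed the threshold of p alone. These were the only 2 of the 8 fits with 1 artery left out in which Pdgfb had an adjusted p under 0.05. The highest adjusted p among the 8 was 0.152 (edgeR), without injured 4. With all arteries the adjusted p was 0.017 in DESeq2. In edgeR it was 0.0365 with upper-quartile factors and 0.0466 with at least 10 counts required in every library. It stayed above the threshold with RLE factors (0.0552), no filter (0.0749) and a replicate block (0.109, all edgeR).

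Pdgfc and Pdgfd encode the PDGFs that need proteolytic activation. Pdgfc was low, at 5.38, 2.78, 3.87 and 1.80 CPM in the controls and 8.58, 5.78, 6.26 and 4.56 CPM in the injured arteries, which correspond to 26 to 144 counts per library. All injured arteries except injured 4 were above every control. The log2 fold change of Pdgfc was 0.86 (standard error 0.36, interval 0.04 to 1.69, adjusted p = 0.143, edgeR), and it was 0.65 without control 4 (adjusted p = 0.157, edgeR).

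Pdgfd was at 7.61, 7.11, 5.45 and 3.81 CPM in the controls and within the narrow range of 4.25 to 5.78 CPM in the injured arteries. Its groups overlapped, and the log2 fold change (-0.27, standard error 0.25, adjusted p = 0.504, edgeR) was within the spread. It was -0.44 without control 4 (adjusted p = 0.157, edgeR).

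Pdgfra encodes the alpha receptor, a marker of fibroblasts in the vessel wall. It was at 98.6, 104.7, 132.3 and 56.8 CPM in controls 1 to 4 and at 156.6, 129.3, 90.0 and 131.1 CPM in the injured arteries. The lowest injured artery was injured 3, below 3 of the controls, and the groups overlapped. The log2 fold change was 0.37 (standard error 0.27, adjusted p = 0.393, edgeR) and 0.17 without control 4 (adjusted p = 0.525, edgeR).

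Pdgfrb encodes the beta receptor of smooth muscle cells and pericytes. It was at 1082, 743, 976 and 342 CPM in controls 1 to 4 and at 1073, 973, 850 and 1016 CPM in the injured arteries. Controls 1 and 3 were within the range of the injured arteries or just above it. Control 2 was below every injured artery, and control 4 lay far below every other artery. The log2 fold change was 0.32 with a wide interval of -0.43 to 1.06 (adjusted p = 0.552, edgeR). Without control 4 it was 0.06 and the interval narrowed to -0.28 to 0.41 (adjusted p = 0.79, edgeR), so that changes of 2-fold in either direction lay outside the interval. In the same arteries the contractile smooth muscle markers summed to 10500 to 16500 CPM, below the 17400 to 50400 CPM of the controls, and 5 of the 8 were called lower. The pericyte markers summed to 774 to 2180 CPM in the controls and 1210 to 1650 CPM in the injured arteries, with 0 of 5 called.

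**Figure D3:**
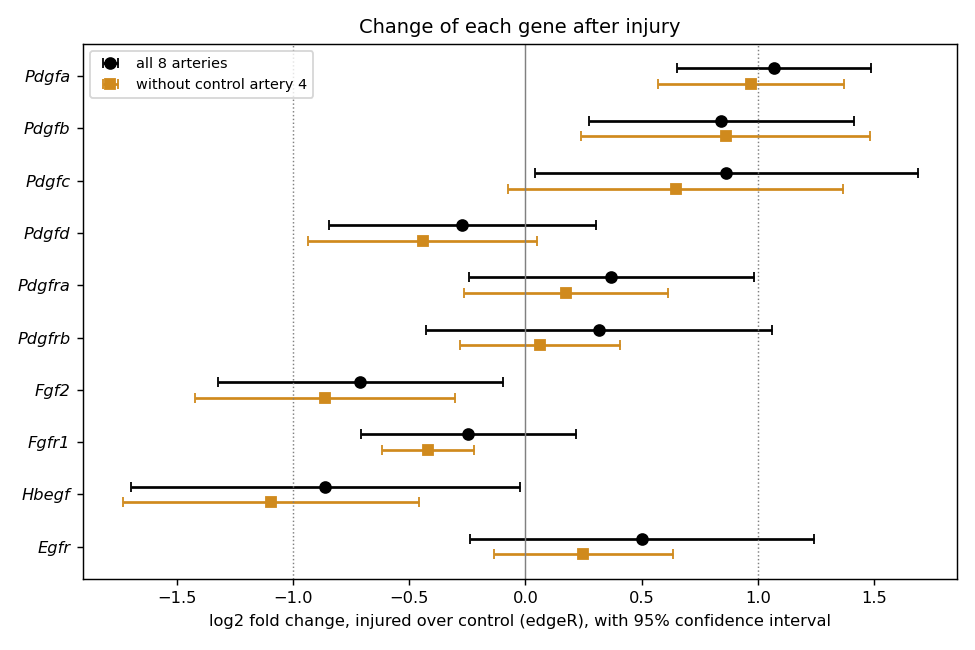
Log2 fold change of each gene, injured over control, with its 95% confidence interval from edgeR, for all 8 arteries (black circles) and without control 4 (orange squares). Dotted lines mark a fold change of 2. The interval of Pdgfa is above 0 in both fits, from 0.65 with all arteries, and so is that of Pdgfb, from 0.27, while those of Fgf2 and Hbegf are below 0 in both.

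Fgf2, basic FGF, is a mitogen of smooth muscle and endothelial cells. Its level was 10.3, 14.5, 13.2 and 7.75 CPM in controls 1 to 4 and 5.84, 5.64, 9.73 and 6.68 CPM in injured arteries 1 to 4. Control 4 was the lowest control and injured 3 the highest injured artery, and the groups overlapped only through these. The mean was 11.4 ± 3.04 CPM in the controls and 6.97 ± 1.90 CPM in the injured arteries (SD, n = 4), a log2 difference of -0.71 (standard error 0.27, interval -1.33 to -0.10, adjusted p = 0.11, edgeR). Without control 4 it was -0.86 with an adjusted p of 0.0309 (edgeR), and without both control 4 and injured 3 it was -1.07 with an adjusted p of 0.00464 (edgeR), which passed both criteria.

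Fgfr1, the receptor of FGF2, was at 545, 569, 573 and 312 CPM in controls 1 to 4 and at 415, 433, 397 and 441 CPM in injured arteries 1 to 4. The injured arteries lay close together, below controls 1 to 3 and above control 4. With all arteries the log2 fold change of Fgfr1 was -0.25 (standard error 0.20, adjusted p = 0.452, edgeR). Without control 4 it was -0.42 (standard error 0.09, adjusted p = 0.00895, edgeR), a fall that passed the threshold of p but not that of the fold change.

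Hbegf encodes heparin-binding EGF-like growth factor, which binds the EGF receptor. It was at 95.2, 117.2, 65.0 and 37.7 CPM in the controls and at 65.5, 39.0, 35.4 and 33.5 CPM in the injured arteries. Control 4 and injured 1 brought the groups to overlap, the first with a level like that of injured arteries 2 to 4 and the second with one like that of control 3. The mean was 78.8 ± 34.8 CPM in the controls and 43.4 ± 15.0 CPM in the injured arteries (SD, n = 4). The log2 fold change was -0.86 (standard error 0.37, interval -1.70 to -0.02, adjusted p = 0.151, edgeR) with all arteries. It was -1.10 (adjusted p = 0.0203, edgeR) without control 4 and -1.0 (adjusted p = 0.0264, edgeR) without control 4 and injured 3, and passed both criteria in these fits.

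Egfr, the EGF receptor, was at 52.6, 54.9, 49.6 and 19.2 CPM in controls 1 to 4. In injured arteries 1 to 4 its level was 66.6, 79.9, 50.3 and 52.8 CPM, so that injured 3 and 4 lay within controls 1 to 3. The log2 fold change was 0.50 (standard error 0.32, adjusted p = 0.335, edgeR) and 0.25 without control 4 (adjusted p = 0.298, edgeR).

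Without control 4, 14758 genes were tested, of which 12.3% were called higher and 3.94% lower. Of the 10 genes, 0 were called higher and 1, Hbegf, lower. By the adjusted p alone, 2 of the 10 were higher, Pdgfa and Pdgfb, against 17.0% of all genes, and 3 were lower, Fgf2, Fgfr1 and Hbegf, against 12.9%. Every injured artery was above controls 1 to 3 for Pdgfa, as for 22.2% of all genes, and below them for Fgf2 and Fgfr1, as for 18.1%. Without both control 4 and injured 3, 0 of the 10 were called higher, against 12.5% of all genes, and 2 were called lower, Fgf2 and Hbegf, against 4.68%. With all arteries 9.51% of genes had every injured artery below every control, and none of the 10 did. Leaving out control 4 lowered the log2 fold change of 9 of the 10 genes and changed the sign of none.

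Ratios between pairs of the genes were formed within each artery from the counts, with 1 added to each, so that they did not depend on the scaling of the libraries. The question was whether a pair of genes changed alike. Hbegf over Egfr was 1.81, 2.13, 1.31 and 1.96 in controls 1 to 4 and 0.984, 0.489, 0.704 and 0.635 in injured arteries 1 to 4. Every injured artery was below every control, control 4 included. The mean log2 ratio differed by -1.38 (two-sided exact permutation p = 0.0286, Benjamini-Hochberg adjusted over 5 ratios 0.0714), and by -1.33 without control 4. The ratio counts ligand against receptor RNA of each artery and is no comparison of their levels.

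Pdgfd over Pdgfc was 1.41, 2.51, 1.40 and 2.07 in the controls and 0.586, 1.00, 0.681 and 1.05 in the injured arteries, again without overlap. The mean log2 ratio differed by -1.15 (exact permutation p = 0.0286, adjusted 0.0714), and by -1.08 without control 4. An unadjusted p of 0.0286 was the smallest possible for 4 arteries against 4, and neither ratio passed after adjustment over the 5.

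The other 3 ratios overlapped between the groups. Fgf2 over Fgfr1 differed by -0.50 on the log2 scale (exact permutation p = 0.0857, adjusted 0.143), with injured 3 at the level of the controls. Pdgfb over Pdgfa differed by -0.18 (exact p = 0.629) and Pdgfra over Pdgfrb by -0.03 (exact p = 0.886). For the PDGF receptors the 4 controls ranged from 0.0911 to 0.166 and the 4 injured arteries from 0.106 to 0.146.

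**Figure D4:**
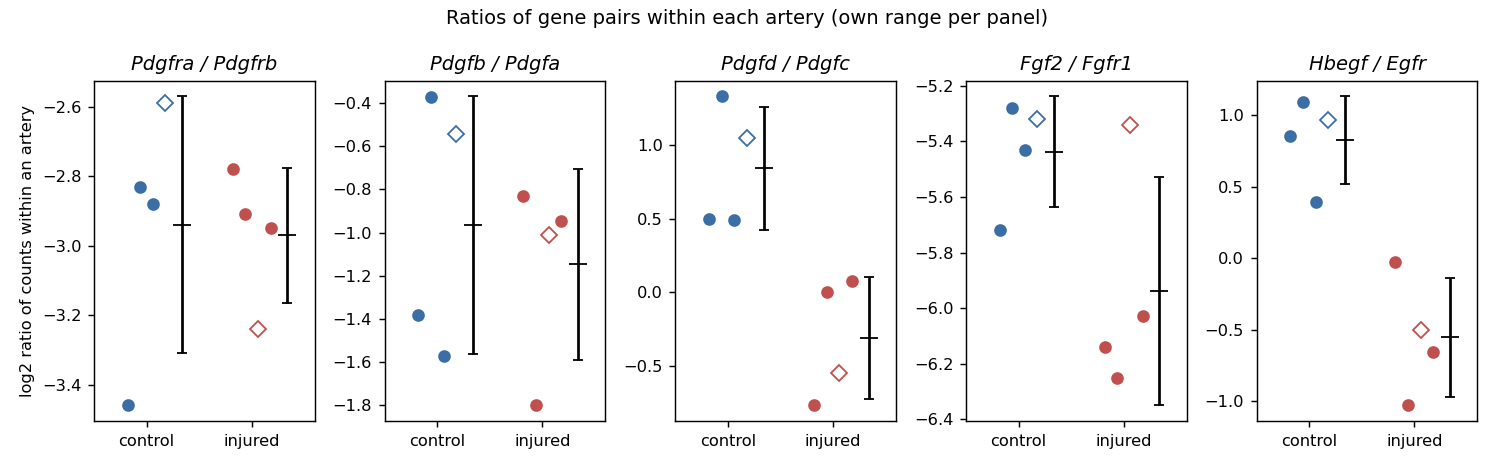
Log2 ratio of the counts of gene pairs within each control (blue) and injured (red) artery, with the mean and SD of each group in black, an own vertical range per panel and open diamonds for control 4 and injured 3. The groups are apart for Pdgfd over Pdgfc and Hbegf over Egfr, with differences of -1.15 and -1.38, and overlap in the other panels.

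The other genes of these pathways were described with 9 lists holding 125 genes, of which 108 had enough counts for the test. In all, 12 (11.1%) were called higher and 1 (0.926%) lower with all arteries, beside 8.31% and 2.57% of all genes tested. Without control 4, 20 of 109 (18.3%) were called higher and 3 (2.75%) lower, beside 12.3% and 3.94% of all genes.

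Enzymes that cut or release PDGFs and EGF ligands showed a median of 0.62 on the log2 scale, and 4 of 14 were called higher and 0 lower. Adam12, a metalloprotease that can shed HB-EGF, rose from 3.39 to 4.83 CPM in the controls to 70.4 to 174.0 CPM in the injured arteries (log2 fold change 4.67, standard error 0.34, adjusted p = 0.000226, edgeR). Plau, the urokinase that can activate PDGF-D, rose from 3.32 to 5.18 CPM to 23.8 to 39.5 CPM (log2 2.72, adjusted p = 0.000391, edgeR). St14, matriptase, another protease that can cut PDGF-D, had a log2 fold change of 1.88 and Rhbdf2, the partner that brings ADAM17 to the cell surface, one of 1.45, with 0.00283 and 0.00145 as adjusted p (edgeR). For all 4, every injured artery was above every control. In the same arteries the 6 macrophage markers summed to 104.0 to 157.0 CPM in the controls and 369.0 to 498.0 CPM after injury, with none at 0 in any artery and 5 of 6 called higher. The 6 proliferation markers summed to 6.67 to 12.0 CPM in the controls and 74.5 to 110.0 CPM after injury, with 6 of 6 called higher. The part of these cells in the results was not tested.

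Of the other FGF ligands and FGF-binding proteins, 8 of 15 were tested, with 1 called higher, 1 called lower and a median of -0.17. Fgf5 was listed at 0 in controls 1 to 3 and at 0.346 CPM in control 4, and was at 3.75, 3.76, 5.93 and 11.6 CPM in the injured arteries (adjusted p = 0.00571, edgeR). The control level was so near the limit of 3 counts that no fold is given. Fgf12, an FGF that stays within the cell, fell from 4.09 to 6.51 CPM to 0.245 to 1.90 CPM (log2 fold change -2.17, adjusted p = 0.023, edgeR), a call lost when control 2, control 3 or injured 2 was left out and in a test against a fold change of 2. With at least 10 counts required in every library Fgf12 could not be tested. Fgf1, chosen after its values were seen, was at 479 CPM in control 4 and 166 CPM in injured 3, the arteries with the highest sums of neuron markers, and at 30.6 to 61.9 CPM in the others. Among the other FGF receptors and klothos, 1 of 4 tested genes was called higher and 0 lower, with a median of -0.03. Fgfr4 went from 0.327 to 0.359 CPM, close to the limit of 3 counts, to 1.34 to 2.61 CPM (adjusted p = 0.0027, edgeR), and no fold is given. Fgfr2 was at 120 to 170 CPM in controls 1 to 3, 41.3 CPM in control 4 and 38.7 to 64.9 CPM after injury. Its log2 fold change was -1.15 (adjusted p = 0.0874, edgeR) with all arteries. Without control 4 it was -1.43 (adjusted p = 0.00255, edgeR), and Fgfr2 was called lower.

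Of the other EGF family ligands 4 of 10 were tested and 0 were called, with a median log2 fold change of 0.00. Nrg1, neuregulin 1, named for its average count and not for a level per length, was at 2.08 to 24.4 CPM in the controls and 3.83 to 12.0 CPM after injury (log2 -0.24, adjusted p = 0.856, edgeR), with the 24.4 CPM in control 4. Of the 3 other receptors of the EGF receptor family 0 were called, with a median of 0.38. Erbb3, a receptor of neuregulins found in Schwann cells, was at 4.95, 0.899 and 11.7 CPM in controls 1 to 3, 81.3 CPM in control 4 and 20.6 to 138.0 CPM after injury. Its log2 fold change was 1.56 (adjusted p = 0.404, edgeR) with all arteries and 3.63 (adjusted p = 0.0164, edgeR) without control 4. The Schwann cell markers summed to 308.0 to 1190 CPM in the controls and 488.0 to 1670 CPM after injury, and their part in this value was not tested.

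Among 6 co-receptors and ligand partners 1 was called higher and 0 lower, with a median of 0.27. Nrp2, a co-receptor in the neuropilin family, had a log2 fold change of 1.25 (adjusted p = 0.0115, edgeR). Of the feedback inhibitors 20 of 21 were tested, with 1 called higher, 0 lower and a median of 0.20. Socs3, an inhibitor of cytokine and growth factor receptors, rose from 9.76 to 15.7 CPM to 45.6 to 79.0 CPM (log2 2.17, adjusted p = 0.00129, edgeR).

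The signal transducers between the receptors and the nucleus had a median of -0.16, and 0 of the 34 tested were called in either direction. Stat3, a transcription factor named for its average count, had a log2 fold change of 0.24 (adjusted p = 0.215, edgeR). By the adjusted p alone 0 of the 34 were higher, against 10.8% of all genes, and 3 were lower, against 6.41%. These 3, chosen after their values were seen, were the adaptor Gab2, the phosphatase Ptpn11 and the kinase Braf, with log2 fold changes of -0.42, -0.39 and -0.56. Without control 4, 1 of the 34 was called higher and 0 lower, beside 12.3% and 3.94% of all genes. This was Pik3cd, at 6.60 to 10.6 CPM in controls 1 to 3, 53.4 CPM in control 4 and 51.0 to 55.3 CPM after injury. Its log2 fold change was 2.60 (adjusted p = 0.00015, edgeR) without control 4 and 1.42 (adjusted p = 0.172, edgeR) with all arteries.

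Of 15 genes that respond to ERK, 4 were called higher and 0 lower, with a median of 0.46. Etv4, an ETS transcription factor, was at 0.0718 to 0.692 CPM in the controls, close to the limit of detection, and at 2.86 to 6.03 CPM after injury (adjusted p = 0.00764, edgeR). Plaur, the urokinase receptor, had a log2 fold change of 2.17, Phlda1, a pleckstrin-homology protein, one of 1.78 and Ccnd1, cyclin D1, one of 1.31, with 0.00148, 0.00559 and 0.000637 as adjusted p (edgeR). The immediate early gene Egr1, chosen after its values were seen, went the other way without passing the test, at 62.3 to 675.0 CPM in the controls and 34.6 to 258.0 CPM after injury (log2 fold change -1.59, adjusted p = 0.306, edgeR).

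**Figure D5:**
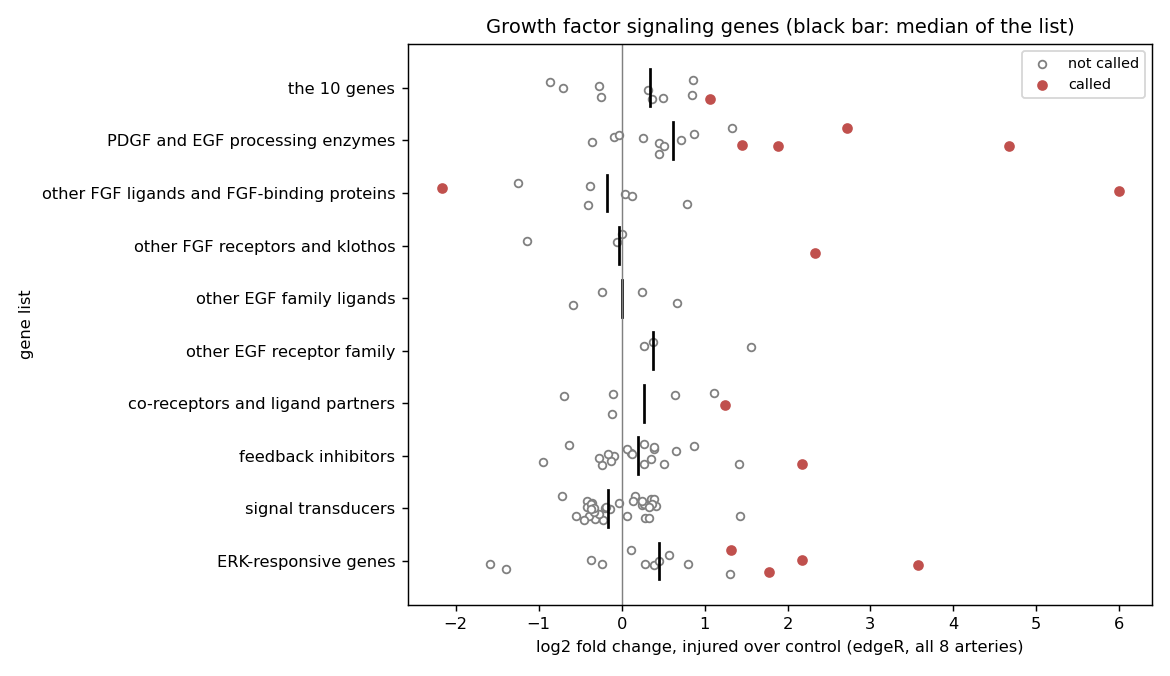
Log2 fold change (edgeR, all 8 arteries) of the 10 genes and of the tested genes of 9 pathway lists, 1 point per gene, red where called, with the median of each list as a black bar; vertical scatter within a list has no meaning. Of the listed genes 11.1% are called higher and 0.926% lower, beside 8.31% and 2.57% of all genes, and none is called among the signal transducers.

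Markers of other cells that make or receive these factors were also measured. The 8 endothelial markers summed to 904 to 2340 CPM in the controls and 798 to 1130 CPM after injury, with 2 called higher, Cdh5 and Kdr, and 1 lower, Vwf. The largest part of each sum was Vwf, at 441 to 1480 CPM in the controls and 192 to 363 CPM after injury. The adventitial fibroblast markers summed to 19800 to 59500 CPM and 30900 to 47600 CPM, with 1 of 7 called higher, Dpt, and 2 lower, Dcn and Pi16. Most of each sum was Col1a1 and Col3a1, which were not called. Col1a1 was at 8430 to 26900 CPM in the controls and 13600 to 22500 CPM after injury, and Col3a1 at 9530 to 28900 and 15500 to 23900 CPM. The 6 platelet and megakaryocyte markers, of interest since platelets carry PDGF, summed to 5.40 to 18.3 CPM in the controls and 18.9 to 26.9 CPM after injury, with 0 of the 2 that could be tested called. Most of each sum was Pf4, at 3.12 to 12.4 CPM in the controls and 11.3 to 22.4 CPM after injury. Ppbp, Gp1ba and Gp9 stayed at or below 0.408 CPM in every artery. The 9 skeletal muscle markers, of a tissue that lies beside the artery, summed to 83.4 to 252.0 CPM in the controls and 286.0 to 1030 CPM after injury, with 6 of the 8 tested called higher. The T cell markers summed to 19.5 to 40.7 CPM and 127.0 to 162.0 CPM, with 1 of 6 called higher. Most of each sum was the called gene, Cd4, at 17.9 to 31.3 CPM in the controls and 117.0 to 144.0 CPM after injury. Cd3d, Cd3e and Cd3g were higher on average but stayed at or below 3.83 CPM and were not called. The adipocyte markers summed to 80.8 to 685.0 CPM and 118.0 to 306.0 CPM, with 0 of 5 called. The part of these cells in the levels of the 10 genes was not tested.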

How the data were processed

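The authors sequenced mRNA from 4 injured and 4 control arteries and deposited raw read counts per gene, listed by symbol and not normalized. Per the submitters' processing notes, reads were aligned with HISAT2 2.0.4. The counting tool, its strand setting and the genome build are not given in the sources used here, so overlapping genes on opposite strands could share reads.

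Counts were filtered with filterByExpr, scaled with TMM factors and tested with edgeR 4.0.16 (quasi-likelihood, limma 3.58.1, R 4.3.3), without a replicate block. A gene was called at a Benjamini-Hochberg adjusted p under 0.05, over all 14359 genes tested, and a fold change above 2, the study's criteria. Every standard error comes from the same fit. All 8 columns of the table belong to a labelled sample. Alternatives were DESeq2 1.42.0, other scalings and filters, a replicate block, a test against the fold change of 2, adjusted p alone, and leaving out each artery. A fit without control artery 4 and injured artery 3 was added after the data were seen. The scripts were tested on simulated data. The members, pathway lists and 13 marker lists were chosen with earlier results of these data known. All members are named, and from each pathway list up to 4 called genes with the largest change, or the gene with the highest average log2 CPM where none was called. Marker lists are given as sums, and their gene with the highest average log2 CPM is named only for some. Other named genes were chosen after their values were seen.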

Additional observations from a re-analysis of the deposited data

Results flagged for a closer look

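In 2 of the 30 groups of 4 arteries examined, counting the levels of the 10 genes and the 5 ratios in each group, a single artery lay far from the other 3 by Dixon's criterion, where chance gives about 1.5. Both were control artery 4. The level of Fgfr1 in it was 312 CPM and the nearest control was at 545 CPM, a gap of 0.892 of the range of the controls. Egfr was at 19.2 CPM in it and at 49.6 CPM in the nearest control, a gap of 0.85 of the range. This artery also had the 10300 CPM of sympathetic neuron markers, whose part in these levels was not tested.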

How the results depend on the processing

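The log2 fold change of each of the 10 genes kept its sign under all 17 other fits of the counts, and that of Pdgfa ranged from 0.95 to 1.25. Scaling by library totals alone moved all genes by 0.179 on the log2 scale and called 2 of the 10 higher, Pdgfb being added at 1.03 (adjusted p = 0.0239, edgeR). This scaling called 1432 genes higher and 248 lower in all. With it 3 of the 10 did not overlap between the groups, but the share of all genes without overlap was not computed for it. Testing against a fold change of 2 called 0 of the 10 higher, 0 pathway list genes lower, and 600 higher and 61 lower genes in all. Requiring at least 10 counts in every library left 715 genes higher and 0 pathway list genes lower, while DESeq2 called 2 pathway list genes lower. By the adjusted p alone 920 genes were lower, 6 of them in the pathway lists. Without both control 4 and injured 3, 1800 genes were higher and 673 lower, with 0 of the 10 higher, 2 lower and 3 pathway list genes lower.

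Leaving out 1 artery at a time gave 0 to 2 of the 10 genes higher, 0 to 1 lower, 1 to 3 without overlap, 12 to 20 pathway list genes higher and 0 to 3 lower, and 945 to 1817 genes higher and 197 to 581 lower in all. Of all genes, 22.2% lay above and 18.1% below without overlap when control 4 was left out. With all arteries these shares were 14.2% and 9.51%, and they were not computed for the other arteries left out. Of the 10, 0 were higher without control 4 or injured 2 and 2 without control 2, and 1 was lower without control 4. The all-gene count of lower genes was 227 without control 2, 200 without injured 2, 197 without injured 4 and 581 without control 4. The log2 ratio differed by -1.56 to -1.22 for Hbegf over Egfr, -1.28 to -0.99 for Pdgfd over Pdgfc, -0.70 to -0.40 for Fgf2 over Fgfr1, -0.38 to 0.04 for Pdgfb over Pdgfa and -0.20 to 0.09 for Pdgfra over Pdgfrb. With 3 arteries against 4 no exact p can be under 0.0571.

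The labels call the right artery a self-control but do not say that a shared number marks the same rat. Across genes, the departure of an injured artery from its group mean correlated with that of the control of the same number at 0.301, 0.45, -0.52 and -0.416, and only number 2 correlated best with its own number. With the number as a replicate block Pdgfa kept its call (log2 1.06, adjusted p = 0.0426, edgeR), 1 of the 10 was higher and 0 lower, 954 genes were higher and 234 lower, and 0 pathway list genes were lower, Fgf12 having an adjusted p of 0.0784 (edgeR). For the ratios, sign flips of the 4 same-numbered differences gave an unadjusted p of 0.125 for Hbegf over Egfr and for Pdgfd over Pdgfc. This was the smallest p that 4 sign flips allow, and the other ratios had 0.25 to 0.875.

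Depth limits the low genes, Pdgfc and Pdgfd among the 10, with 26 to 144 counts per library.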
